A study of Homo sapiens with 8 samples.

Results

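CpG-poor coding promoters are open regions at the start sites of protein-coding genes whose DNA holds few CpG dinucleotides. They were chosen by sequence and position: the 8 peak lists were merged into 96872 regions, and a region was kept if its midpoint lay within 1000 bp of a basic protein-coding transcription start site (TSS), if no coding TSS of another gene on the opposite strand lay within 1000 bp, and if the CpG observed/expected ratio in a window reaching 250 bp to either side of the midpoint was below 0.4. The ratio compares the number of CpG dinucleotides with the number that the C and G content alone would give. This left 1793 member regions, 1.85% of all merged regions, at 1613 of 19609 annotated coding genes (8.23%). Of the 13362 one-way coding promoter regions, 10448 had a ratio of 0.6 or more and are called CpG-rich here, and 1121 lay between 0.4 and 0.6.

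The libraries are ATAC-seq libraries, in which the Tn5 transposase cuts and tags accessible DNA, from HEK293T, a line of human embryonic kidney cells that carries the SV40 large T antigen. The cells of 4 libraries carried an H2A(E92K) lentivector, called E92K here, and those of the other 4 an H2A lentivector, called H2A, by the genotype labels, while the series' design text calls the cells transfected, so whether the histone was delivered stably or transiently cannot be told from them. E92K puts a lysine in place of a glutamate of the nucleosome acidic patch, the negatively charged face of the histone octamer that many chromatin proteins grip. All cells were untreated, the labels state no removal of the cells' own H2A genes in either group, and they give neither the promoter of the lentivector nor whether the cells were clones or separate cultures, so the p-values speak only of the spread among these libraries, which may be technical.

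Most human promoters lie in CpG islands, stretches that are kept free of DNA methylation and stay nucleosome-poor in nearly every cell type. Promoters outside islands belong mostly to genes used in particular tissues or in response to a signal, and depend more on transcription factors that bind in the cell concerned. TATA boxes, which place the transcription machinery at a fixed distance from the start, are more frequent among them.

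Lists held 55527 to 61850 peaks in E92K libraries and 57439 to 62044 in H2A libraries, and the genome-wide background behind the peaks, a measure of relative depth, was 2.23 to 2.68 fragments in E92K libraries and 2.52 to 2.93 in H2A libraries. A peak missing from a list was not called at that depth, which does not show that the site was closed. In a bulk library, fewer cells with an open site and less accessibility per cell cannot be told apart. Of 12 nephron progenitor genes 10 had a peak within 1000 bp of a coding TSS in all 8 libraries, as had 10 of 14 neuron, 5 of 17 kidney tubule, 5 of 10 podocyte, 2 of 20 hematopoietic, 3 of 20 hepatocyte and 1 of 14 germline genes. Over all 19609 coding genes 13341 had one. The lists differ in CpG class. CpG-poor one-way canonical TSSs numbered 1 for the nephron progenitor and 2 for the neuron genes. They numbered 12 for the kidney tubule, 3 for the podocyte, 15 for the hematopoietic, 16 for the hepatocyte and 6 for the germline genes. These counts therefore do not describe cell type alone.

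The rule was applied around the region midpoint, not before the start site, and DNA before the start was not CpG-poor in every member. In EXOC4, the strongest member, the 160 bp before the start held 9 CpGs at a ratio of 0.80 and the ratio at the strongest summit was 0.58, and in NKPD1 they held 14 CpGs at 0.75. The member sequences printed here are 3 among the 10 strongest at a canonical TSS that were CpG-poor before the start too and held no annotated untranslated bases. The first 3 below, each 160 bp ending at the base before the TSS in hg38, belong to these members, and the last belongs to one of the strongest CpG-rich promoters at a canonical TSS, for contrast; capitals mark CpG dinucleotides.
INSYN2B (chr5:169980496-169980655, minus strand): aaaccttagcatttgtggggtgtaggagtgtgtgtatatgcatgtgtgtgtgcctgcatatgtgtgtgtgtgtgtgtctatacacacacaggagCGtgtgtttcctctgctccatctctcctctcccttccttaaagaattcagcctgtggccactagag
GOLPH3L (chr1:150697155-150697314, minus strand): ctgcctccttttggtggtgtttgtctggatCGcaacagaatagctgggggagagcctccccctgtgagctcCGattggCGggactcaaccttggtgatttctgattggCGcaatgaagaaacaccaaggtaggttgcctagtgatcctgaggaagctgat
HLA-DMB (chr6:32941029-32941188, minus strand): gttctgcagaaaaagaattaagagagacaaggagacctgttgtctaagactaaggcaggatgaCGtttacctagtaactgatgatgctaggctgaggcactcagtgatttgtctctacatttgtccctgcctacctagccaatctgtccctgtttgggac
MFSD14B (chr9:94374409-94374568, plus strand): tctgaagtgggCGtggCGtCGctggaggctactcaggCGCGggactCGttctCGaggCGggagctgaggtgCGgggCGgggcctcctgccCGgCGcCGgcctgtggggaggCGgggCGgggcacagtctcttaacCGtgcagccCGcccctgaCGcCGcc
INSYN2B held 1 CpG in these 160 bp, GOLPH3L 4 and HLA-DMB 1, against 19 in MFSD14B. Over all members the median window held 7 CpGs and 50.7% G+C, against 48 CpGs and 69.1% G+C over CpG-rich regions. The rule used these values, which are given as a description.

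No motif was part of the rule, though its limit on CpGs bears on motifs that hold one. The shares in the members stand below beside those in the other one-way promoters, as descriptions with no test over regions. The TATA box letters TATAAA, searched on both strands of the window, were found in 374 members (20.9%), against 4.59% of CpG-rich regions and 7.40% of all one-way promoter regions. A TATAAA lying wholly between 40 and 20 bases before the nearest TSS on the coding strand stood in 55 members (3.07%), against 1.26% of CpG-rich regions. At the 672 members whose nearest TSS was the canonical one of the gene, 44 (6.55%) had it. Of the 55, 33 had a region that covered the TSS itself, and 9 of these were canonical and present in all 8 libraries. The following 4 are from those 9, each 60 bp before the TSS, with TATAAA in capitals.
SELENOP (chr5:42811893-42811952, minus strand): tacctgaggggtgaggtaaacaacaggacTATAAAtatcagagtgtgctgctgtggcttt
DEPP1 (chr10:44978810-44978869, minus strand): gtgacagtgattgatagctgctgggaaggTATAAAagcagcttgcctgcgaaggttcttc
H2AC4 (chr6:26033619-26033678, minus strand): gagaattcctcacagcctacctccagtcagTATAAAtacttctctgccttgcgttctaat
EYS (chr6:65707227-65707286, minus strand): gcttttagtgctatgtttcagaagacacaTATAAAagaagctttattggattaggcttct
TATAAA began 31 bases before the start in SELENOP, the plasma selenoprotein that carries selenium between organs, in DEPP1 and in EYS, a gene of photoreceptor maintenance. It began 30 bases before the start in H2AC4, a replication-dependent gene of histone H2A itself. The SELENOP region had a mean strength percentile of 76.2 over the 8 libraries, DEPP1 37.9, H2AC4 35.2 and EYS 27.5. The H2AC4 region spanned 2394 bp, and its strongest summit lay 1522 bp from the start, where the ratio was 0.86, so its strength is not that of the TATA box site. The strength percentile of a region is the rank of its highest authors' fold within a list, among the 36895 regions present in all 8 lists, with 100 the strongest.

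The rule bears on motifs that contain a CpG, since it kept windows with few CpGs and the same windows were searched, so their low shares in members largely restate the rule and are given as a description. The SP1 GC box GGGCGG, on either strand, was found in 21.2% of members, against 87.1% of CpG-rich and 75.8% of all one-way regions. The ETS letters CCGGAAGT stood in 0.61% of members, 6.98% of CpG-rich and 5.79% of all one-way regions, and the NRF1 consensus in 0.056%, 9.98% and 7.93%. The CRE letters TGACGTCA, which also hold a CpG, were found in 1.1% of members, 2.8% of CpG-rich and 2.5% of all one-way regions. Motifs with no CpG went both ways. The GATA letters AGATAA stood in 23.1% of members, 5.39% of CpG-rich and 8.58% of all one-way regions, and the AP-1 letters TGANTCA in 16.2%, 4.0% and 6.2%. CCAAT stood in 43.3% of members, 35.7% of CpG-rich and 37.5% of all one-way regions. The YY1 letters AAGATGGC were found in 1.67%, 5.38% and 4.68%, and the CTCF core in 1.34%, 0.17% and 0.35%. Members hold more A and T than CpG-rich regions, so letters such as TATAAA and AGATAA are also met more often by base composition, and the share due to it was not tested. A match describes the letters and not a bound factor.

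Members sat less tightly on start sites than CpG-rich regions. The midpoint lay within 250 bp of a TSS in 875 members (48.8%), against 74.1% of CpG-rich regions, and the region covered the TSS in 1106 members (61.7%), against 95.8%. The strongest summit lay a median of 212 bp from the TSS in members and 108 bp in CpG-rich regions. A CpG-rich window lay within 1000 bp of 276 members (15.4%). In 618 members (34.5%) the gene also had another promoter region, at any of its start sites, that was CpG-rich and open in all 8 libraries. Of these 618, 535 had no CpG-rich window within 1000 bp of the member, so the other promoter mostly lay further off. At members with the canonical TSS the gene had such another promoter region in 46 (6.85%). With the window placed on the strongest summit in place of the midpoint, 1616 members (90.1%) stayed below 0.4 and 52 (2.90%) reached 0.6 or more.

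Just inside the threshold stood PIP5KL1 at 0.3997, RBMS3 at 0.3992 and TMEM225B at 0.3991, and just outside it MXRA7 at 0.40003, TYRO3 at 0.4001 and DNAJB13 at 0.4002. Among the lowest ratios of members present in all 8 libraries were 0 at SHOC1, a meiotic recombination gene, and at CYP1A1, a cytochrome P450 induced by aryl hydrocarbons. IL17F, a cytokine of T cells, and TNFAIP8L2 followed at 0.040 and 0.041. The IL17F midpoint lay 940 bp downstream of the start, which the region did not cover. The mean strength percentile was 68.2 at TNFAIP8L2 and 32.6 at CYP1A1. The CYP1A1 region spanned 2735 bp and its strongest summit lay at −767 bp from the start, where the ratio was 0.71, so this strength is not that of the window without CpGs.

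Few CpG-poor start sites were open. Of 4571 canonical one-way coding TSSs with a ratio below 0.4 around the TSS, 13.7% ± 0.55 had a peak within 1000 bp in E92K libraries and 14.1% ± 0.35 in H2A libraries (SD, n = 4 each; exact two-sided permutation p = 0.314). In all, 445 (9.74%) were open in all 8 libraries and 3618 (79.2%) in none. Of the 11327 with a ratio of 0.6 or more, 88.3% ± 0.53 were open in E92K libraries and 88.4% ± 0.41 in H2A libraries (exact two-sided permutation p = 0.800), and 85.8% were open in all 8.

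Presence over libraries was uneven. Of the 1793 members, 771 (43.0%) were present in all 8 libraries and 403 (22.5%) in a single one. Of CpG-rich regions 9788 (93.7%) were present in all 8 and 1.15% in 1, and of all merged regions 38.1% were present in all 8 and 26.5% in 1. The width of the merged region grew with presence, with a median of 314 bp for members in 1 library, 634.5 bp in 4 and 1063 bp in 8. The 30 to 69 members found only in a given library had median authors' folds of 3.1 to 3.4 and median −log10 q of 2.93 to 3.39 in that list, close to the list floor of 2. The 771 members in all 8 had median folds of 5.88 to 6.29 and median −log10 q of 18.6 to 23.3. Across the 1793 members the ratio and the number of libraries had a Spearman correlation of 0.18, a description over regions that share libraries.

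**Figure D1:**
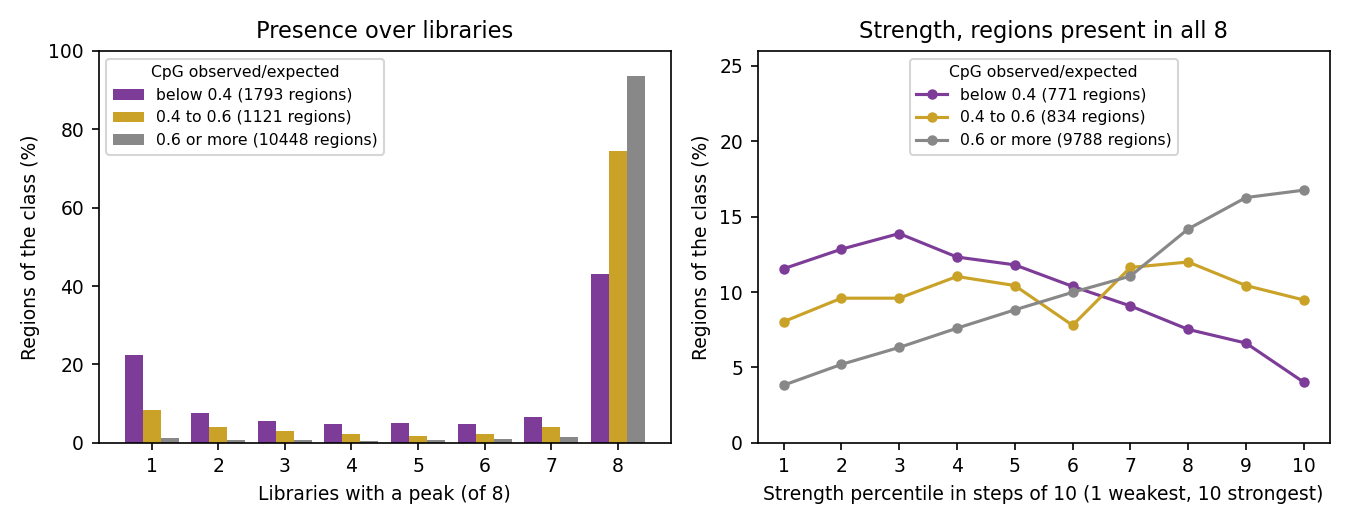
Left, share of regions (%) by the number of libraries with a peak, for CpG-poor members and the other classes of one-way coding promoter regions; right, share (%) of the regions present in all 8 libraries by strength percentile in steps of 10. Members peak at both ends on the left, 22.5% in 1 library and 43.0% in 8, and on the right they thin out towards the strongest step, which holds 4.02% of members and 16.8% of CpG-rich regions.

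Within each library the members were narrower and weaker than CpG-rich promoters. The median width of regions with a peak was 628.8 bp ± 20.05 for members and 1089 bp ± 26.2 for CpG-rich regions (SD, n = 8 libraries), a difference of −460.4 bp ± 30.6 with the same sign in 8 of 8 libraries (exact two-sided sign-flip permutation p = 0.0078, the smallest that 8 libraries allow). This width comparison also holds the regions of few libraries, which are narrow and more frequent among members. For regions present in all 8 libraries the gap was smaller and was not tested. There the median of the mean covered width was 794.5 bp for members and 1106 bp for CpG-rich regions. Among regions present in all 8 libraries the median strength percentile was 39.5 ± 0.81 for members and 67.7 ± 0.62 for CpG-rich regions, a difference of −28.1 ± 0.98 in 8 of 8 libraries (exact two-sided sign-flip permutation p = 0.0078). Over all regions with a peak in a list, those of few libraries included, median fragment pileups at summits were 31 to 37 in members and 113 to 143 in CpG-rich regions. The quartiles of member strength were 20.4, 39.2 and 62.1, and 31 of 771 members (4.02%) reached the 90th percentile, against 1640 of 9788 CpG-rich regions (16.8%).

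**Figure D2:**
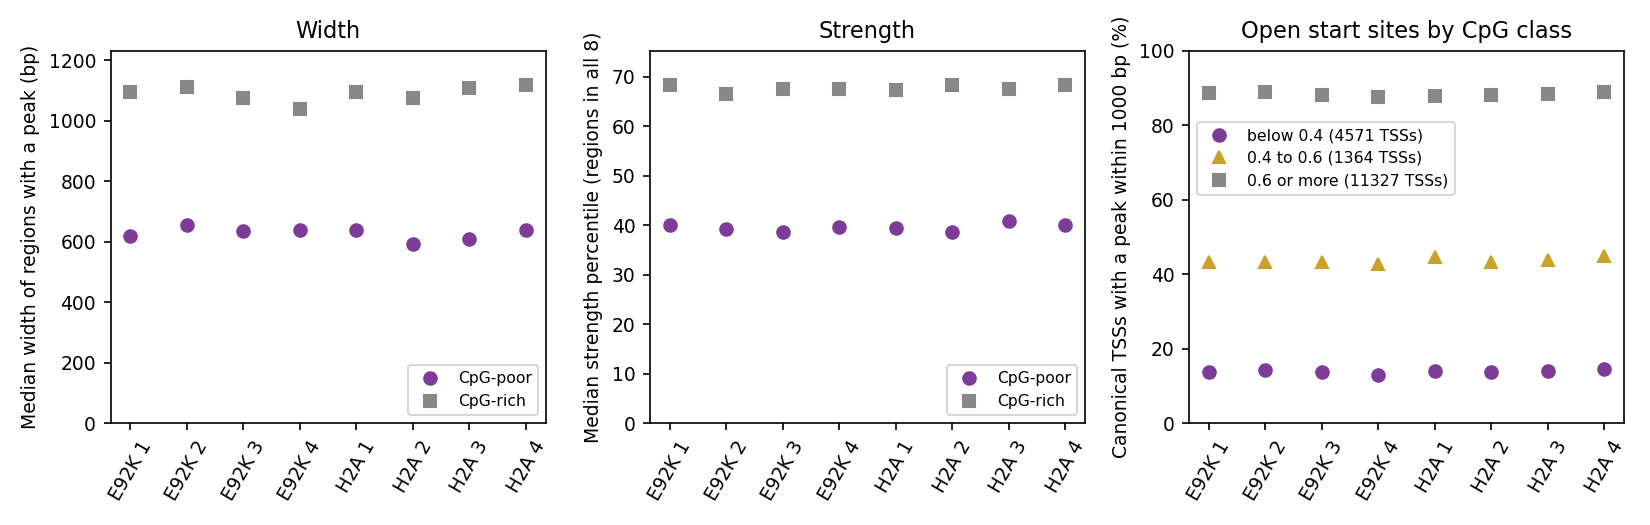
Each point is 1 library, the 4 E92K libraries on the left of each panel and the 4 H2A libraries on the right. The panels give the median width (bp), the median strength percentile and the share (%) of canonical start sites with a peak, by CpG class; CpG-poor members lie below CpG-rich regions in all 8 libraries on the first 2 panels, and open CpG-poor start sites stay between 13.1% and 14.5%.

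The strongest members at canonical start sites ranked high in both groups. EXOC4, a subunit of the exocyst that tethers vesicles to the plasma membrane, had folds of 13.0, 15.3, 13.7 and 15.3 in E92K libraries and 14.2, 13.3, 13.2 and 15.9 in H2A libraries (replicates 1 to 4). GOLPH3L, a Golgi protein, had 13.9, 12.9, 13.7 and 13.7 in E92K libraries and 14.9, 13.8, 14.9 and 14.6 in H2A libraries. Both stayed above the 98th percentile in every library, and the groups overlapped. ERV3-1, an endogenous retroviral envelope gene, INSYN2B and BAK1, a pore-forming effector of mitochondrial apoptosis, followed with mean strength percentiles of 98.3, 98.03 and 94.5. MUCL1, a small mucin-like gene of breast and salivary glands, APOL2, an apolipoprotein L, UPK2, a uroplakin of the urothelial surface, CSRNP3, a nuclear protein, and HLA-DMB, which helps to load peptides on MHC class II, closed this group of 10 at 91.4, 90.5, 90.2, 90.1 and 89.4.

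Width and strength marked different members. HOXC4, a homeobox gene of axial patterning, was the widest, with a covered width of 2489, 2905, 2621 and 2864 bp in E92K libraries and 3042, 2874, 2909 and 3123 bp in H2A libraries, at a mean strength percentile of 14.03. GLRX, a glutaredoxin, covered 2196 to 2286 bp in E92K libraries and 2256 to 2788 bp in H2A libraries. RCOR2, a corepressor that works with the demethylase LSD1, SQSTM1, the autophagy receptor p62, and RNASEH2B, a subunit of RNase H2, completed the 5 widest. Of these regions 4 had a CpG-rich window within 1000 bp, all but GLRX, and the ratio at the strongest summit was 0.59 in HOXC4, 0.52 in GLRX, 0.99 in SQSTM1 and 0.94 in RNASEH2B, against 0.32 in RCOR2.

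The share of a gene family with a member varied around the 8.23% of all coding genes. Of 39 interferon-stimulated genes, which cells switch on in viral infection, 12 (30.8%) had a member. Of 131 interleukin, chemokine and interferon genes 15 (11.5%) had one, of 373 solute carriers 38 (10.2%), of 96 potassium channel genes 11 (11.5%) and of 78 orphan G protein-coupled receptor genes 13 (16.7%). Of 388 olfactory receptor genes, sensory receptors of the nose, 371 had a CpG-poor canonical TSS, and 7 (1.80%) had a member, 378 having no peak at any coding TSS in any library. None of 94 keratin-associated protein genes and 1 of 55 keratins (KRT15, in 1 library) had a member, and 93 and 52 of these genes were open in none. Families used in every cell were open but held no member: none of 80 cytosolic ribosomal protein genes and none of 50 proteasome genes had a member, while 78 and 48 of them were open in all 8 libraries. Only 1 ribosomal protein gene and 1 proteasome gene had a CpG-poor one-way canonical TSS, so the rule left little room for members there. Of 512 ZNF zinc finger genes 14 (2.73%) had one and 413 were open in all 8. Several of these members ranked high by mean strength percentile: the potassium channel genes KCNN3 at 96.3 and KCNA2 at 93.5, ZNF684 at 92.9, the urea transporter gene SLC14A2 at 90.8 and the cytokine gene IL20 at 81.9. SLC7A11, the cystine/glutamate exchanger, stood at 75.6, the olfactory receptor gene OR52N2 at 59.8 and the chemokine gene CXCL1 at 39.6. All of these were present in all 8 libraries. In KCNN3, KCNA2, ZNF684 and SLC14A2 the nearest TSS was not the canonical one, so these strengths are not those of the canonical start sites. No test was made of these shares, which describe lists chosen with earlier results of these data known. They also depend on how many CpG-poor one-way canonical TSSs a family holds, and do not measure openness alone. Such TSSs numbered 22 for the interferon-stimulated genes, 96 for the interleukin, chemokine and interferon genes and 96 for the solute carriers. They numbered 25 for the potassium channels, 37 for the orphan receptors and 32 for the ZNF genes.

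The remaining lists gave few members. Serpins had 4 of 34 genes with a member, cytochrome P450 genes 4 of 56, collagens 4 of 44, claudins and cadherins 5 of 47, CD antigens 6 of 77, the epidermal differentiation complex 3 of 55, cancer testis antigens 3 of 105, taste receptors 2 of 27, replication-dependent histones 1 of 69 and clustered protocadherins 1 of 53. Their strongest members were S100A4, a calcium-binding protein of the epidermal differentiation complex locus, at a mean strength percentile of 86.2, CD80, a costimulatory ligand for T cells, at 68.1, COL1A2, a chain of type I collagen, at 49.3, and the melanoma antigen gene MAGEC3 at 45.3. Among markers of cell types, nephron progenitor genes had 2 of 12, MEOX1 and EYA1, both in all 8 libraries, at mean strength percentiles of 51.9 and 11.6. Hepatocyte genes had 4 of 20, of which APOB, at 26.1, and TTR, at 24.7, were in all 8, skeletal muscle 3 of 16, of which TTN, at 33.7, and TNNI2, at 25.4, were in all 8, neuron 2 of 14, hematopoietic 2 of 20, both in 1 library, and endothelial 1 of 12. Kidney tubule (17 genes), podocyte (10), keratinocyte (10), adrenal and chromaffin (12) and germline genes (14) had none. The nearest TSS was the canonical one at CD80, COL1A2, MEOX1 and TNNI2, but not at S100A4, MAGEC3, EYA1, APOB, TTR and TTN.

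Interferon-stimulated genes held 13 member regions, 8 of them in all 8 libraries. The interferon-stimulated response element, a site that IRF9 and its partners bind, was searched as GAAANNGAAA on both strands, a motif added after the values had been seen. It stood in 5 of the 13 windows, in 8.25% of all members, in 3.17% of CpG-rich regions and in 4.11% of all one-way regions. Of 11 CpG-rich regions at interferon-stimulated genes 7 had it. The 160 bp before the TSS of IFI6, a mitochondrial antiviral protein, and of SAMD9, a restriction factor of poxviruses, are shown with each match in capitals.
IFI6 (chr1:27672213-27672372, minus strand): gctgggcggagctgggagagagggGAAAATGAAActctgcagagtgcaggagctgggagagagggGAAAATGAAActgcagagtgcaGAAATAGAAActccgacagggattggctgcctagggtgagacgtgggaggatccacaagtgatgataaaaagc
SAMD9 (chr7:93118024-93118183, minus strand): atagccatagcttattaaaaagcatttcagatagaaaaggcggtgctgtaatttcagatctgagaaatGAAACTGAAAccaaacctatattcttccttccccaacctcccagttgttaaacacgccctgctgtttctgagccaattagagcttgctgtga
IFI6 had the strongest region of the list, with folds of 10.4 ± 0.55 in E92K libraries and 10.2 ± 1.06 in H2A libraries (SD, n = 4 each). SAMD9 was called in 3 of 4 E92K and 3 of 4 H2A libraries. IRF9, the DNA-binding subunit of the interferon response complex, had folds of 7.70 ± 0.47 in E92K libraries and 7.43 ± 0.79 in H2A libraries. IFIT1, IFITM1, IFI44L, IFI35 and 1 of the IFIT2 regions were also in all 8 libraries, at mean strength percentiles of 51.0, 28.4, 26.4, 4.22 and 15.2. OASL was called in 7 libraries, a further IFIT2 region in 2, and GBP1 and RIGI in 1 each.

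The comparison of E92K with H2A detected no difference in the class as a whole. Members with a peak numbered 1135, 1222, 1144 and 1082 in the E92K libraries and 1183, 1164, 1167 and 1199 in the H2A libraries. E92K replicate 2 had the most and E92K replicate 4 the fewest, so the groups overlapped. Means were 1146 ± 57.7 in E92K libraries and 1178 ± 16.2 in H2A libraries (SD, n = 4 each), a difference of −32.5 (exact two-sided permutation p = 0.371, 0.886 after Benjamini-Hochberg adjustment over the 5 values per library). Peaks lying in members made up 2.04% ± 0.012 of the peaks of E92K lists and 2.05% ± 0.044 of those of H2A lists. Members covered 842 kb ± 54.2 in E92K libraries and 861 kb ± 23.8 in H2A libraries. The median covered width of the 771 members in all 8 was 798.5 bp ± 32.4 in E92K libraries and 802.5 bp ± 18.6 in H2A libraries, and their median strength percentile 39.4 ± 0.65 in E92K libraries and 39.7 ± 1.01 in H2A libraries. None of the 5 passed (exact two-sided permutation tests, adjusted p = 0.886 each; 4 against 4 libraries cannot go below 0.0286 unadjusted).

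**Figure D3:**
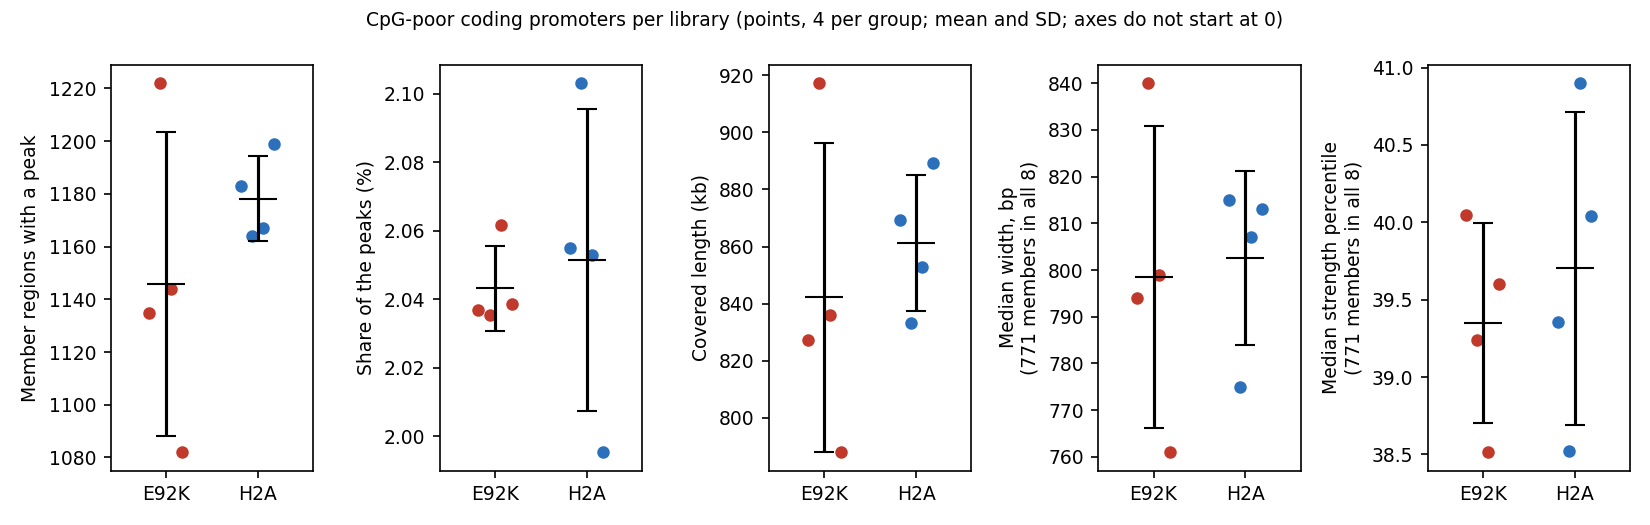
Each point is 1 library, E92K left and H2A right, with the mean and SD of 4. The panels give the number of members with a peak, the share of a list's peaks that lie in members (%), the covered length of members (kb), and the median width (bp) and strength percentile of the 771 members in all 8. The groups overlap in every panel.

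By presence, 398 members (22.2%, against 24.2% of all merged regions) were called in more E92K than H2A libraries, 472 (26.3%, against 28.3%) in more H2A libraries, and 923 in equal numbers. Those called in at least 3 more E92K than H2A libraries numbered 27 (1.51%, against 1.16% of all merged regions), and those called in at least 3 more H2A than E92K libraries 32 (1.78%, against 1.38%). No member was called in all 4 E92K and no H2A libraries, against 0.139% of all merged regions, and 7 (0.39%) were called in all 4 H2A and no E92K libraries, against 0.184%. None passed Fisher's exact test after adjustment over all regions (0%, Benjamini-Hochberg), and the 7 had the smallest p that 4 against 4 libraries allow, 0.0286 unadjusted. The count of H2A-only members fell to 4 with equal numbers of peaks per list, with a promoter radius of 500 bp or with a ratio below 0.3. With equal numbers of peaks per list E92K-only members numbered 2. With 1 library left out, which eases the rule to 3 of 3 libraries in that group, H2A-only members numbered 9 to 11. This count was highest without E92K replicate 3 and without H2A replicate 3. Members in all the E92K but no H2A libraries then numbered 1 to 6. The shares over all merged regions were not taken for these settings.

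The 7 were ASCL5, a bHLH factor gene, LPIN1, a phosphatidate phosphatase of lipid synthesis, SLC4A5, a sodium bicarbonate cotransporter, MYLK4, a myosin light chain kinase, TMEM225B, PTP4A3, a protein tyrosine phosphatase, and ADGRD1, an adhesion G protein-coupled receptor. ASCL5 and SLC4A5 are shown, as the central 160 bp of the merged region on the gene's strand, with CpG dinucleotides in capitals.
ASCL5 (chr1:201127572-201127731, minus strand): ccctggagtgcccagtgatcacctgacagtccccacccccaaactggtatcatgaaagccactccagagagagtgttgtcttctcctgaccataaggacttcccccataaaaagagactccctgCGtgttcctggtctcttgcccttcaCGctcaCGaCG
SLC4A5 (chr2:74333379-74333538, minus strand): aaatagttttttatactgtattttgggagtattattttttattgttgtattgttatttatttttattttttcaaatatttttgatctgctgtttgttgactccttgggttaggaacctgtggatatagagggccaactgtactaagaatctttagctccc
In each library the folds of all 7 lay below the median of 5.88 to 6.28 that the H2A lists gave for members in all 8 libraries. ADGRD1 had the highest folds, 5.23, 4.79, 5.10 and 6.26 in H2A replicates 1 to 4, in peaks of 267 to 287 bp. SLC4A5 had folds of 4.20, 4.18, 3.84 and 4.56 and no CpG in the sequence above. TMEM225B had 3.64, 3.58, 3.6 and 4.33, MYLK4 2.68, 3.84, 2.63 and 2.94, and LPIN1 3.10, 3.19, 2.69 and 3.11. ASCL5 had 2.41, 2.93, 2.66 and 2.47, and PTP4A3 3.61, 2.25, 2.19 and 2.49. The −log10 q was between 2.1 and 13.9, and ASCL5 alone of the 7 lay at the canonical TSS. In the E92K lists no peak was called there, and no fold exists for comparison.

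Strength was compared region by region with limma on the percentiles of the 36895 regions present in all 8 lists. No region passed a Benjamini-Hochberg adjusted p of 0.05 (0%). Of the 771 members 72 (9.34%) had an unadjusted p below 0.05, against 9.16% of all regions, 41 of them higher in E92K (5.32%, against 5%) and 31 lower (4.02%, against 4.16%). The median difference over members, E92K minus H2A, was 0.19 percentile points, against −0.19 over all regions.

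IFIT3, an interferon-induced antiviral protein, had the smallest p among members. Its folds were 7.90, 8.62, 9.24 and 9.38 in E92K libraries and 5.54, 6.51, 5.996 and 5.81 in H2A libraries. All 4 E92K values lay above all 4 H2A values, but the gene was picked by its p, so this separation is no further support. The mean strength percentile was 72.6 in E92K libraries and 38.3 in H2A libraries, a difference of 34.3 ± 6.07 (SE) that did not pass the adjustment (limma, Benjamini-Hochberg adjusted p = 0.233). Leaving out any 1 library gave differences of 32.0 to 37.1 and adjusted p of 0.287 to 0.445. Most of the other interferon-stimulated members in all 8 libraries had a higher mean percentile in E92K libraries. Lower in E92K libraries were 377 of all 771 members and 19024 of all 36895 regions, so a higher mean was about as common as a lower one. Means in E92K and H2A libraries were 87.8 and 86.3 at IFI6, 59.996 and 58.04 at IRF9, and 54.4 and 47.5 at IFIT1. They were 31.4 and 25.5 at IFITM1, and 19.7 and 10.7 at IFIT2. Lower in E92K were IFI44L, at 25.9 in E92K libraries and 27.01 in H2A libraries, and IFI35, at 4.09 and 4.36. None of these differences passed (limma, SE of 2.03 to 7.52 percentile points, adjusted p of 0.742 to 0.987). The nearest TSS was not the canonical one at IFI6, IRF9, IFI44L and this IFIT2 region. The IFIT2 region at the canonical TSS was called in 1 E92K and 1 H2A library.

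Others with small p, none past the adjustment, were MAGI2, a junction scaffold, at 37.1 in E92K libraries and 18.9 in H2A libraries, and ARHGAP32, a GTPase-activating protein, at 97.0 in E92K libraries and 89.0 in H2A libraries. Lower in E92K were SLC1A5, a glutamine transporter, at 7.26 in E92K libraries and 17.1 in H2A libraries, UTRN, which encodes utrophin, at 4.44 in E92K libraries and 15.2 in H2A libraries, and NKPD1, at 5.99 in E92K libraries and 17.2 in H2A libraries. Adjusted p-values from limma were 0.337 to 0.356. In each of these genes the 4 libraries of a group did not overlap the 4 of the other. The genes were picked by small p, so this separation is no further support.

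**Figure D4:**
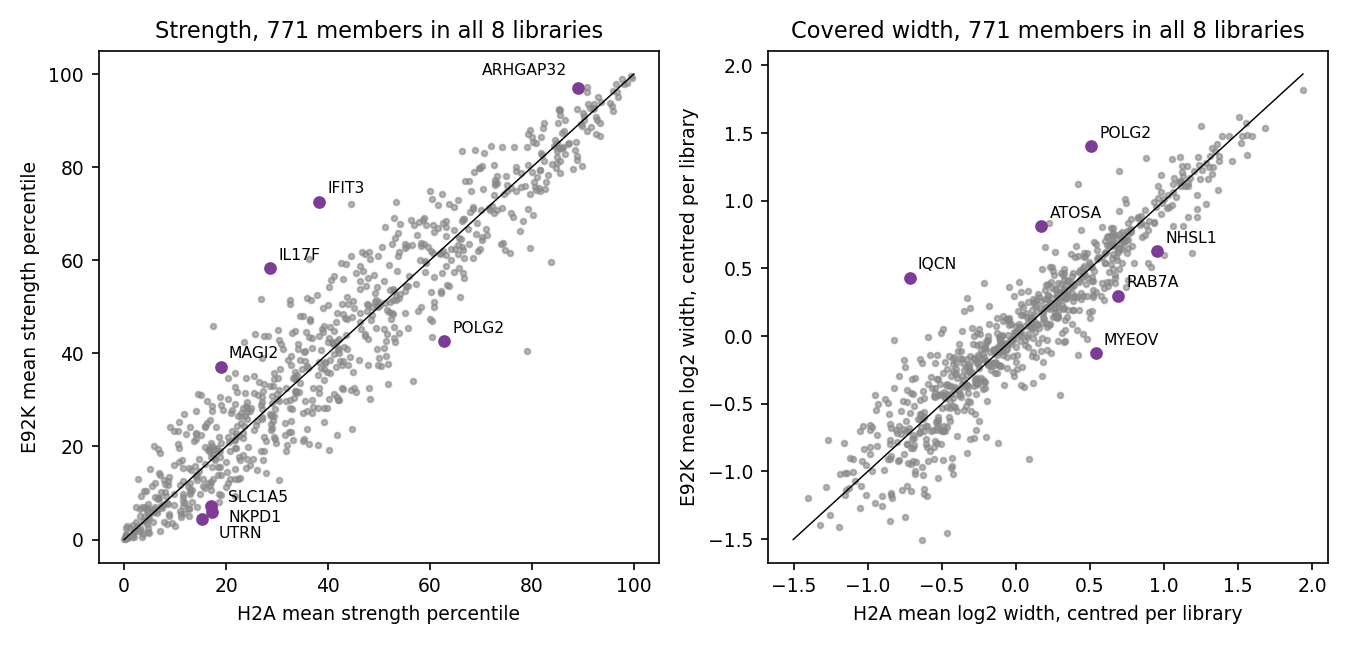
Each grey point is 1 of the 771 members present in all 8 libraries, with its E92K mean on the vertical and its H2A mean on the horizontal axis, for the strength percentile (left) and the log2 covered width centred per library (right); the line marks equal means and named members are purple. IFIT3 stands above the line on the left (72.6 in E92K, 38.3 in H2A) and POLG2 on the right. POLG2 width alone passed the test, and POLG2 counts as a member only through upstream peaks of the E92K lists.

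Covered width, on a log2 scale after centring each library on its median, gave 1 call over all 36895 regions with limma (0.00271%), and the region is a member. It lies at POLG2, the accessory subunit of the mitochondrial DNA polymerase, on chromosome 17. Its covered width was 1917, 2381, 2040 and 1855 bp in E92K libraries and 1117, 1127, 1116 and 1080 bp in H2A libraries. The groups did not overlap, and the H2A values were close to each other. The log2 difference was 0.89 ± 0.064 (SE; limma, Benjamini-Hochberg adjusted p = 0.00711). The adjusted p was 0.0575 without E92K replicate 3, 0.0626 without H2A replicate 3 and 0.018 to 0.0457 without any other library. It was 0.0558 when the widths were not centred and 0.114 with the replicate numbers as a block.

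The additional width lay upstream of the gene and not at its start. In all 8 libraries a peak with its strongest summit upstream of the POLG2 start, at −57 to −184 bp, covered the start site, with folds of 6.83, 6.18, 5.86 and 6.84 in E92K libraries and 6.62, 7.79, 8.01 and 8.94 in H2A libraries. As strength percentiles these were 49.0, 38.5, 35.4 and 47.4 in E92K libraries and 49.7, 64.0, 64.6 and 72.6 in H2A libraries, lower in E92K without overlap, a difference that did not pass (limma, adjusted p = 0.421). Positions here count from the start, negative upstream. The H2A peaks ended at −651 to −687 bp. In E92K replicates 1 and 2 the same peak ran on to −1482 and −1967 bp. In E92K replicate 3 a separate weak peak with a fold of 2.26 ran between −1944 and −1263 bp, and in E92K replicate 4 one with a fold of 2.25 between −1976 and −1320 bp. That stretch lies over the end of DDX5, an RNA helicase gene on the same strand whose annotated end is at base 64498254 of chromosome 17. The merged region therefore has its midpoint at −756 bp, where the ratio is 0.18, while at the strongest summit the ratio is 0.91. The sequences below show both places, with CpG dinucleotides in capitals.
POLG2, before the start site (chr17:64497055-64497214, minus strand): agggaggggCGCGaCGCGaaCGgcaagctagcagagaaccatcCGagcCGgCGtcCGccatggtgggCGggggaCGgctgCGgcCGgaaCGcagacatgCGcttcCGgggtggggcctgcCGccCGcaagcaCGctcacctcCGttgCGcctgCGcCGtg
POLG2, centre of the merged region (chr17:64497730-64497889, minus strand): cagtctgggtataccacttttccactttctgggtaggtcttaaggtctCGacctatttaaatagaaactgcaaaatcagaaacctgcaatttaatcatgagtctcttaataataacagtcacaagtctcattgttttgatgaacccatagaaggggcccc
The first holds 23 CpGs and the second 1. POLG2 thus counts as CpG-poor through the stretch that only the E92K lists held, and with the ratio taken at the strongest summit, or with a promoter radius of 500 bp, it is no member. In E92K replicates 3 and 4 the peak at the start alone covered 1358 and 1198 bp. Their separate peaks count in the width because the longer peaks of E92K replicates 1 and 2 join both places into 1 merged region.

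**Figure D5:**
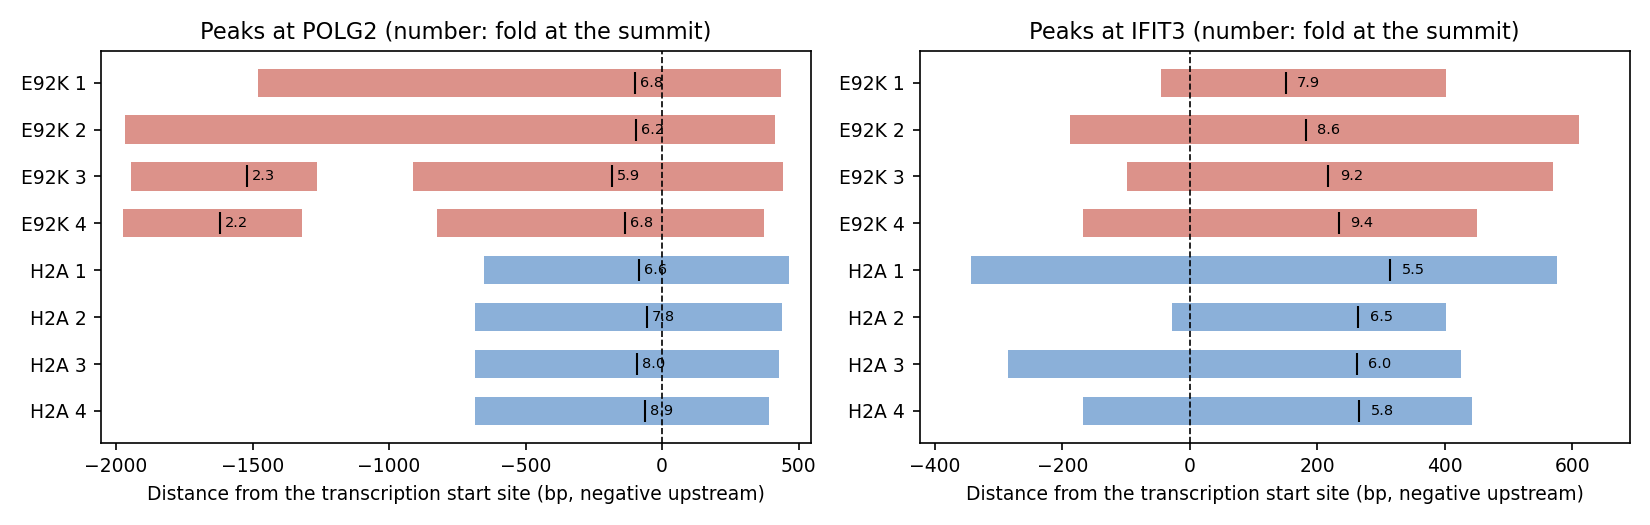
Peaks of each library at POLG2 (left) and IFIT3 (right), E92K libraries above H2A libraries, as bars against the distance (bp) from the transcription start site, with negative values upstream; ticks mark the strongest summit of each peak and numbers give its fold. At POLG2 the E92K peaks reach −1482 to −1976 bp and the H2A peaks −651 to −687 bp; at IFIT3 the folds are 7.9 to 9.4 in E92K and 5.5 to 6.5 in H2A.

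Of the 771 members 65 (8.43%) had an unadjusted width p below 0.05, against 6.58% of all regions. In E92K 20 (2.59%) were wider, against 2.87%, and 45 (5.84%) narrower, against 3.71%. Narrower in E92K with the smallest p was NHSL1, with 1159, 1276, 1184 and 1156 bp in E92K libraries and 1481, 1407, 1535 and 1634 bp in H2A libraries. RAB7A, a GTPase of late endosomes, covered 947, 1074, 943 and 847 bp in E92K libraries and 1367, 1223, 1214 and 1225 bp in H2A libraries. MYEOV covered 572 to 812 bp in E92K libraries and 1090 to 1191 bp in H2A libraries. The groups did not overlap in these genes, which were picked by small p, and none passed the adjustment (limma, adjusted p of 0.252 to 0.403). IQCN covered 723 to 1319 bp in E92K libraries and 351 to 766 bp in H2A libraries, and ATOSA 1107 to 1703 bp in E92K libraries and 751 to 1158 bp in H2A libraries. Both pairs of groups overlapped, and the adjusted p-values from limma were 0.473 and 0.503. IQCN was among the weakest of all members, with a mean strength percentile of 0.38. Without E92K replicate 1, whose peak joins 2 neighbouring stretches, the ATOSA region split, and the piece at its centre gave a difference of −0.15 on the log2 scale.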

How the data were processed

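The labels gave groups and replicate numbers. Each library has 1 headerless peak list of 10 columns, and peaks were called per library. Per the series' design text, reads were aligned to hg38. Not given in the sources used here were the aligner, the caller, any Tn5 shift and the handling of duplicates, each of which can change widths and strengths. The deposited fold is a ratio of each summit to its local background, and further deposited columns give the peak's p-value and q-value as −log10, with no −log10 q under 2. The deposited score is 10 times the −log10 q, cut to a whole number, and was not used as a measure. Folds described and ranked peaks within a list. From fold and −log10 p, whole fragment pileups were recovered for 99.86% or more of the summits of each list, with a tolerance of 0.001.

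Distinct intervals that touch or overlap were joined, and a library with 1 bp or more covered counted as having the region. Annotation was GENCODE version 44, basic coding transcripts, and sequences came from hg38 in the reference supplied. Counts of members, shares, covered length, median width and median strength were compared by exact permutation of library means, and widths and strengths of single regions with limma 3.58.1 (trended, empirical Bayes) in R 4.3.3, tested on simulated data, with Benjamini-Hochberg adjustment over all regions present in all 8 lists. Python 3.11.15, numpy 2.4.6, pandas 2.3.3, scipy 1.17.1, pysam 0.24.0 and matplotlib 3.10.9 were used. Alternatives were a q-value of 1e-05, equal peak numbers (55527), a radius of 500 bp, a ratio below 0.3, 50% coverage for presence, the one-way rule from the midpoint, each library left out, a replicate block, strength by −log10 p, uncentred width and, added after seeing the data, the CpG window at the summit.

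Named members were those called throughout one group and never in the other, the 10 strongest at a canonical TSS, the 5 widest, the 5 of lowest ratio, 3 each side of the threshold, up to 5 past a limma threshold or else the 3 of smallest p per direction, and 2 to 4 examples per gene list. Genes named beyond this rule were chosen after their values were seen. Members, lists and motifs were chosen with earlier results of these data known. Some genes and sequences that meet these rules are not reported here.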

Additional observations from a re-analysis of the deposited data

Results flagged for a closer look

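Of 152 groups of 4 values examined, 8 held a value far from the other 3 by Dixon's ratio at its 95% critical value, and chance alone gives about 1 group in 20. Of the E92K libraries, replicate 3 had the highest share of its peaks in members, 2.06%. H2A replicate 4 had the highest TMEM225B fold of the H2A libraries, 4.33. Among strength percentiles, the RCOR2 value of 10.7 in H2A replicate 1 and the NHSL1 value of 75.7 in H2A replicate 4 stood above the other H2A libraries, and the ATOSA value of 68.5 in H2A replicate 1 stood below them. Among covered widths, APOL2 at 484 bp in H2A replicate 3 and SHOC1 at 313 bp in H2A replicate 3 were low in H2A, and RAB7A at 1367 bp in H2A replicate 1 was high. The RAB7A groups did not overlap with or without it.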

How the results depend on the processing

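The width and strength gaps to CpG-rich promoters kept their sign and call in every alternative run. The non-significant differences between E92K and H2A changed sign in places, none passing. The median strength difference was 1.27 by −log10 p, 1.91 at a q-value of 1e-05, 0.47 with a radius of 500 bp and 1.42 with 50% coverage; the share difference was 0.016 at a q-value of 1e-05; the median width difference was 12 bp with a ratio below 0.3 and 4.63 bp with the window at the summit. Leaving out 1 library gave −0.73 to 0.14 for strength, −0.025 to 0.0088 for the share, −15.4 to 10.4 bp for width and, for ATOSA, −0.15 to 0.77 on the log2 scale. H2A-only members numbered 4 with equal peak numbers, with a radius of 500 bp and with a ratio below 0.3, and 9 to 11 with 1 library left out; E92K-only members numbered 1 at a q-value of 1e-05, 2 with equal peak numbers, 2 with 50% coverage and 1 to 6 with 1 library left out. Members called for width numbered 0 without centring, with the replicate block, with a radius of 500 bp, with 50% coverage and with the window at the summit, and 0 to 1 with 1 library left out. Under the replicate block the POLG2 adjusted p was 0.114; correlations of same-numbered deviations were −0.057 to 0.00029, so the numbers do not pair the libraries, and the block changed no other call. Leaving out a library changes the rule to 3 of 3 libraries, and a radius of 500 bp or the summit window removes POLG2 from the members; otherwise the cause was not tested. Members in 1 library lie near the list floor; the part of depth in this was not tested.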

Other observations

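Members that leaned to a group by 3 or more libraries had unlike shares of canonical start sites. Members called in at least 3 more E92K than H2A libraries numbered 27 (1.51%, against 1.16% of all merged regions), and those called in at least 3 more H2A than E92K libraries 32 (1.78%, against 1.38%). Of the 27, 16 (59.3%) had the canonical TSS as the nearest, against 8 of the 32 (25%) and 37.5% of all members. Among those in 4 E92K libraries and 1 H2A library were GBP6, an interferon-inducible GTPase, and IL33, an alarmin cytokine, both chosen here after their values were seen. These counts were noticed in the data and were not tested.

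Members were a smaller part of the one-way promoter regions on some chromosomes than on others, 8.08% on chromosome 19 and 17.8% on chromosome 4.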
